A study of Mus musculus with 18 samples.

Results

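The piRNA pathway genes described here are Mov10l1, Pld6, Asz1, Tdrkh, Henmt1, Gtsf1, Tdrd5, Tdrd9 and Ddx25. They were taken by symbol from the named probe sets of the arrays. All 9 were found, each by 1 probe set, among 15780 probe sets with 1 gene symbol. None of them lies on chromosome 16 or 17, the chromosomes rearranged in these mice.

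As background, piRNAs are small RNAs of the germ line that load onto PIWI proteins and silence transposons. In the mouse testis a late class, the pachytene piRNAs, accumulates in spermatocytes and spermatids. Long precursors are unwound and cut at the surface of mitochondria, trimmed at their 3′ ends and methylated there before the PIWI proteins act. MOV10L1 is the helicase that feeds precursors to this machinery, PLD6 is the mitochondrial nuclease that cuts them, ASZ1 is a mitochondrial scaffold, TDRKH is the mitochondrial Tudor protein that brings PIWI proteins to the trimming enzyme, and HENMT1 methylates the finished 3′ ends. GTSF1 is a zinc finger partner of PIWI proteins, TDRD5 acts on pachytene piRNA precursors, and TDRD9 is a helicase of the transposon silencing branch. DDX25 is a testis RNA helicase found in the chromatoid body, the granule of spermatids in which many piRNA proteins gather, rather than a processing enzyme.

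Expression was measured on 18 mouse arrays, 10 of sorted spermatocytes from males aged 2 months and 8 of whole testes, without their outer coat, from males aged 15 days. Pre-mid-pachytene spermatocytes came from t12+/+T43 carriers (n = 3), Ttf+/+T43H carriers (n = 3) and C57BL/10J males described as fertile (n = 2). The C57BL/10J line also gave mid-late-pachytene spermatocytes (n = 2). Testes came from t12+/+T43 carriers (n = 3), Ttf+/+T43H carriers (n = 3) and C57BL/6J males (n = 2). Both carrier lines are on a C57BL/10J background, and the study's title concerns what follows in meiosis when more autosomal chromatin stays unsynapsed. As background, T43H is a reciprocal translocation between chromosomes 16 and 17, and t12 and Ttf are variants of chromosome 17, so every carrier male has both a translocated and a variant chromosome. No mid-late-pachytene sample of a carrier was analysed here, and the testis controls are of another strain than the carriers' background.

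Stretches upstream of the start of the 6 genes that differed between the pachytene stages are shown first, since these genes moved in opposite directions. The sequences are RefSeq's for GRCm38.p6, written 5′ to 3′ on the gene's strand, and capitals mark the core AACNG of Myb binding sites or its reverse complement CNGTT. As background, A-MYB, the product of Mybl1, is the transcription factor that switches on pachytene piRNA precursors and several pathway genes. The first 3 genes below were lower in mid-late-pachytene cells, and the last 3 were higher.
Mov10l1, chr15:88982744-88982823, plus strand: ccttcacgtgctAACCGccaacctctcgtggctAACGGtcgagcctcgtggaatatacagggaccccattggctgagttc
Tdrkh, chr3:94413010-94413089, plus strand: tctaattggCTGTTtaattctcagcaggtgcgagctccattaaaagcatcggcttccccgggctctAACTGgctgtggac
Asz1, chr6:18109062-18109141, minus strand: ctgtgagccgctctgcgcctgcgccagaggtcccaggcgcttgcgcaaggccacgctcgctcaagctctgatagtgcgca
Henmt1, chr3:108940512-108940541, plus strand: gtccgcagccacaCGGTTctgggcggggct
Pld6, chr11:59787725-59787804, minus strand: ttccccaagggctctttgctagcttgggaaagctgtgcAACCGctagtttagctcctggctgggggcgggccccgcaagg
Ddx25, chr9:35558601-35558630, minus strand: ggccggctggtcaAACGGaaagctcgcggg
In the 250 bases before the start, both strands, the Myb core was found for 7 of the 9 genes, all but Asz1 and Gtsf1. It was found in 74.2% of all 32851 promoters of the table, so its presence does not set these genes apart. The core TGACG of cyclic AMP response elements, searched on both strands as well, was found for 2 of the 9, Tdrd5 and Henmt1, against 17.8% of all promoters. For both genes the 250 bases searched lie wholly inside the annotated gene. Pld6 has 2 listed starts, and the one shown is the outer one. The Henmt1 stretch lies inside the annotated gene, and that of Ddx25 overlaps the neighbouring gene Pus3. The core was found on both sides of the stage difference, upstream of genes that were higher and of genes that were lower.

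Values are the authors' log2 GCRMA values, and levels are compared within a gene only. Values near or under 4 carry little signal over background. All 9 measured spermatocyte markers reached 4 on every pre-mid-pachytene array, and 8 of them did on the mid-late arrays. Arrays of 1 group correlated on average at between 0.926 and 0.992 in sorted cells, across genes, and at between 0.993 and 0.997 in testes. The lowest belonged to Ttf+/+T43H sorted replicate 2, whose spermatogonial markers averaged 8.66 against 6.90 and 6.60 on the other arrays of that group. The Leydig cell markers of t12+/+T43 sorted replicate 3 averaged 10.61, against 8.03 and 8.12 on the other arrays of its group. Counts below are also given without these 2 arrays, which are called the arrays that stand apart. They do not include t12+/+T43 sorted replicate 2, which agreed least with its group among the t12+/+T43 sorted arrays. It correlated at 0.947 on average, against 0.968 for replicate 1 and 0.963 for replicate 3.

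**Figure D1:**
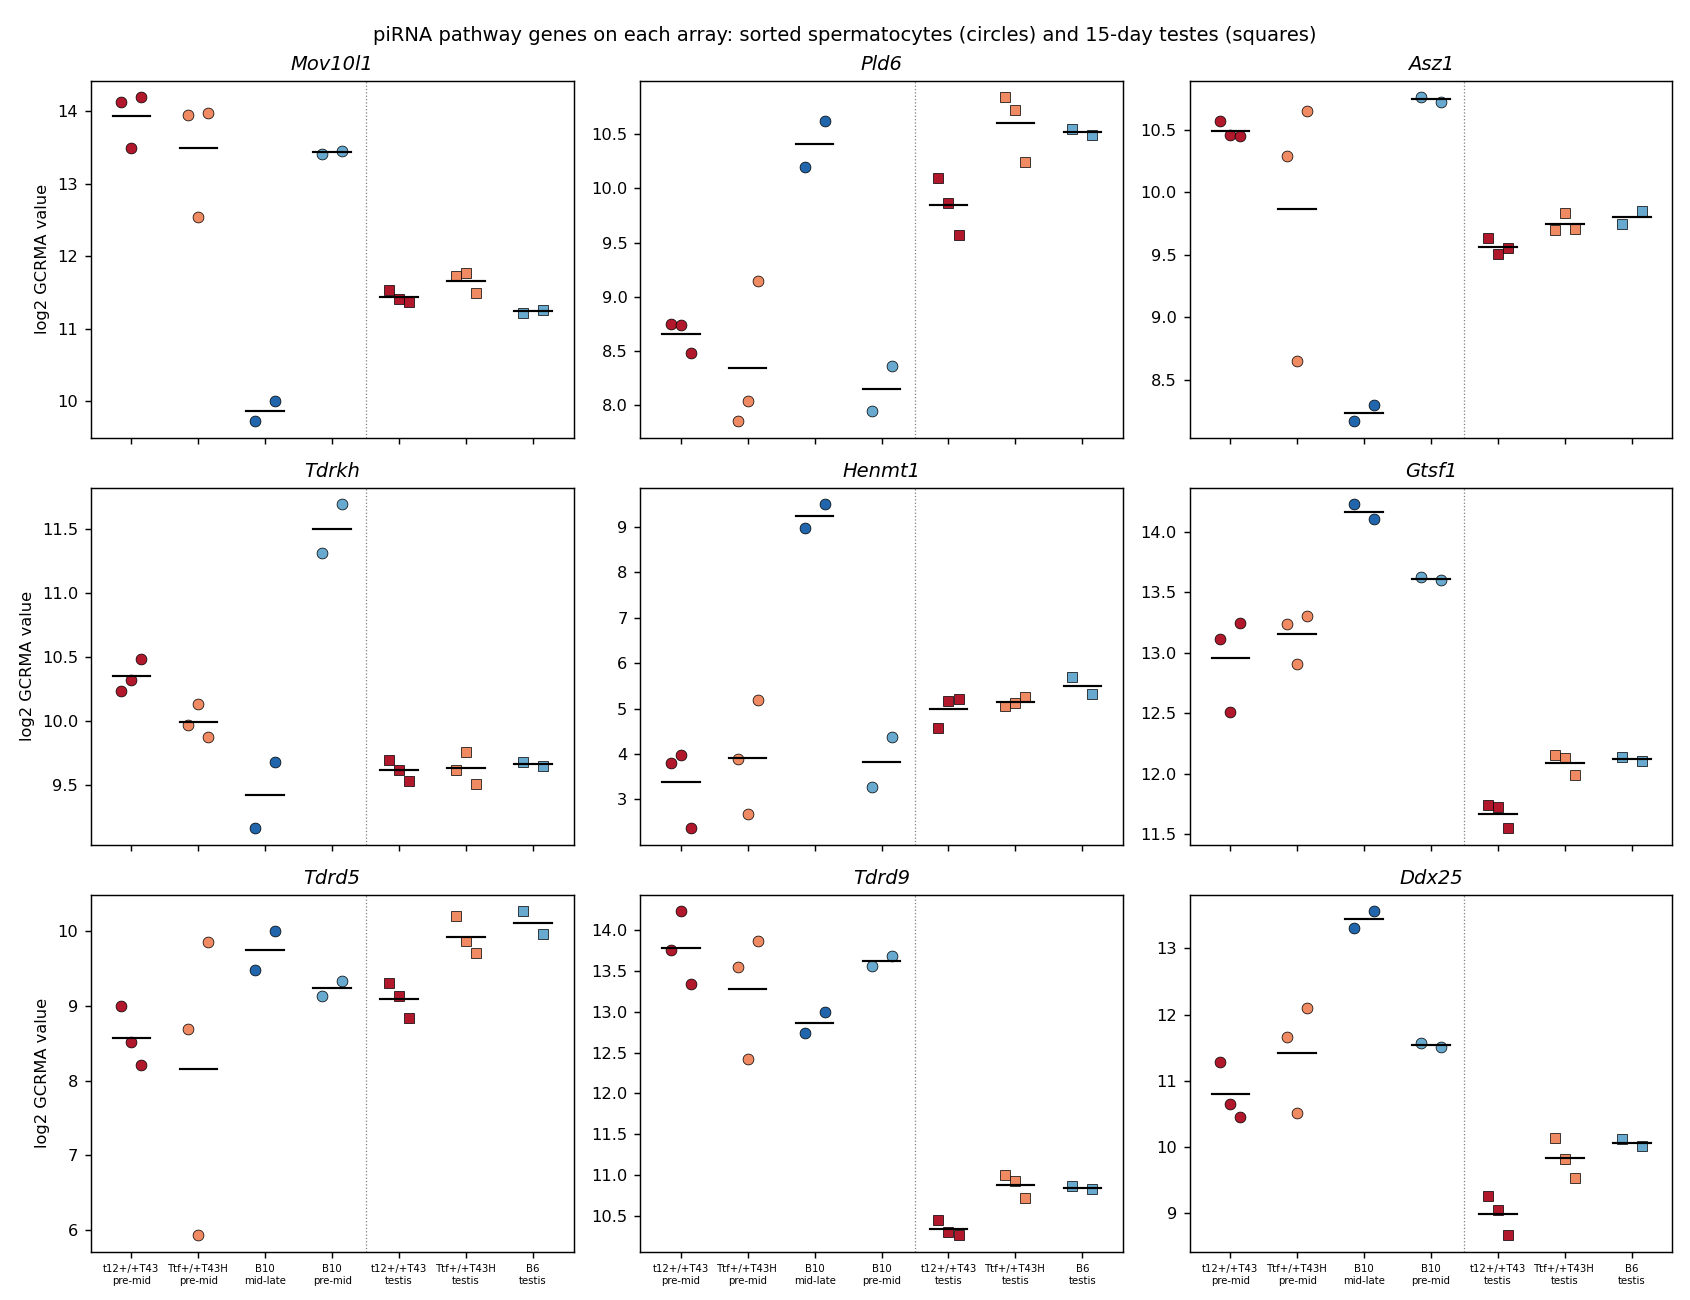
Log2 GCRMA values of the 9 genes on every array, with pre-mid- and mid-late-pachytene sorted spermatocytes as circles and 15-day testes as squares, and a bar at each group mean. Axes differ between genes. Henmt1 stands near 9 only in mid-late-pachytene cells, Mov10l1 near 10 only there, and the t12+/+T43 testes lie below the Ttf+/+T43H testes for Tdrd5, Tdrd9, Gtsf1, Ddx25 and Pld6.

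Between the mid-late and the pre-mid stage of pachytene in C57BL/10J males, the 9 genes split. Henmt1, Pld6 and Ddx25 were higher in mid-late-pachytene cells, Mov10l1, Asz1 and Tdrkh were lower, and Gtsf1, Tdrd5 and Tdrd9 did not pass the test, which is limma's with an adjusted p under 0.05 throughout. Of all 9666 genes tested, 56.5% were called in this comparison, 26.2% higher and 30.3% lower, so 6 of 9 is near the background. The median log2 difference was 0.51 over the 9 genes and -0.11 over all genes. The ranges of the groups did not overlap for any of the 9 genes. That also held for 17 of 19 other piRNA pathway genes tested, which are described below. The share over all genes was not counted, so whether the lack of overlap sets the 9 genes apart cannot be told.

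Among the genes that process precursors, the helicase gene Mov10l1 had 9.72 and 10.00 in mid-late-pachytene cells, against 13.41 and 13.45 in pre-mid-pachytene cells. Both mid-late arrays lay far below both pre-mid arrays, and the difference was -3.57 ± 0.49 (SE, adjusted p = 0.00027), 11.9-fold. The nuclease gene Pld6 moved the other way, with 10.19 and 10.62 in mid-late cells against 7.95 and 8.36 in pre-mid cells. Its difference was 2.25 ± 0.42 (adjusted p = 0.0017). The scaffold gene Asz1 had 8.17 and 8.30 in mid-late cells, against 10.76 and 10.72 in pre-mid cells. The replicates of each stage lay close together, and the stages differed by -2.51 ± 0.55 (adjusted p = 0.0042). Tdrkh, the Tudor gene of the trimming step, had 9.16 and 9.68 in mid-late cells against 11.31 and 11.69 in pre-mid cells. Its 2 groups lay clear of each other, with a difference of -2.08 ± 0.26 (adjusted p = 0.00018). Of the mitochondrial genes, Pld6 was thus higher while Asz1 and Tdrkh were lower.

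The methyltransferase gene Henmt1 showed the widest stage difference of the 9 genes. It had 8.97 and 9.50 in mid-late-pachytene cells, against 3.26 and 4.38 in pre-mid-pachytene cells. The pre-mid values lie at the level where the arrays carry little signal, so the difference of 5.41 ± 0.82 (adjusted p = 0.00053) is measured against background. Ddx25, the chromatoid body helicase gene, had 13.31 and 13.56 in mid-late cells against 11.57 and 11.50 in pre-mid cells. It was called at 1.90 ± 0.49 (adjusted p = 0.0097), and without mid-late replicate 2 its adjusted p was 0.059.

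Gtsf1, Tdrd5 and Tdrd9 were not called between the stages. Gtsf1 had 14.23 and 14.10 in mid-late cells against 13.63 and 13.60 in pre-mid cells, a difference of 0.55 ± 0.29 (adjusted p = 0.14). Tdrd5 had 9.48 and 10.00 in mid-late cells against 9.13 and 9.33 in pre-mid cells, a difference of 0.51 ± 1.02 (adjusted p = 0.71). Tdrd9 had 12.73 and 12.99 in mid-late cells against 13.56 and 13.68 in pre-mid cells, a difference of -0.76 ± 0.47 (adjusted p = 0.20). All 3 stage differences lay within 2 SE, an error that also draws on the more variable carrier arrays. Without the 2 arrays that stand apart, Tdrd9 passed as well and 7 of 9 were called. Under median centring, which moved the median of all genes to 0.46, Gtsf1 passed and 7 of 9 were called as well. Markers of spermatocytes and of other cells moved with the stage. Spermatocyte markers averaged between 10.63 and 10.66 on mid-late arrays, against between 12.29 and 12.31 on pre-mid arrays. Of 9 tested, 2 were called higher and 5 lower in mid-late cells. Spermatogonial markers averaged between 2.78 and 2.81 on mid-late arrays, with 0 of 8 at 4 or above, against between 6.39 and 6.85 on pre-mid arrays, with 6 of 8. Sertoli cell markers averaged between 4.24 and 4.43 on mid-late arrays against between 6.69 and 6.80 on pre-mid arrays, and spermatid markers between 8.78 and 9.40 on mid-late arrays against between 11.51 and 12.19 on pre-mid arrays. RNA quality moved with it too, as the actin signal at the 3′ end exceeded that at the 5′ end by 3.51 and 3.38 on mid-late arrays against 2.49 and 2.51 on pre-mid arrays, while that excess for Gapdh overlapped (2.51 and 3.39 on mid-late against 2.86 and 2.93 on pre-mid arrays). Their part in the stage differences was not tested.

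**Figure D2:**
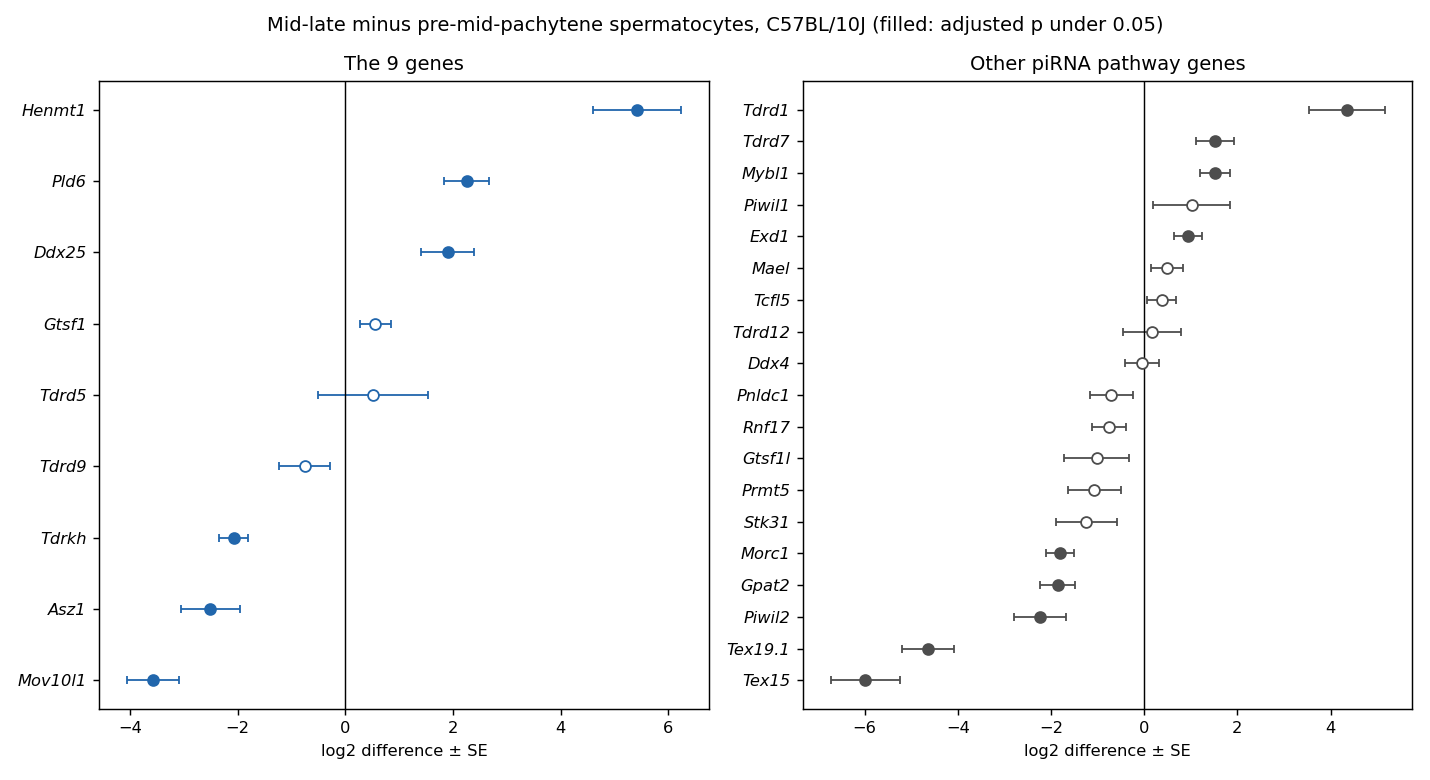
Log2 difference ± SE between mid-late- and pre-mid-pachytene C57BL/10J spermatocytes (2 arrays each) for the 9 genes and for the other piRNA pathway genes tested, filled where limma's adjusted p was under 0.05. Henmt1 is at the top at 5.41 and Mov10l1 at the bottom at -3.57, and the other pathway genes run between 4.35 for Tdrd1 and -5.99 for Tex15.

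Of 28 other pathway genes listed, 20 were on the array and 19 were tested, of which 4 were higher and 5 were lower in mid-late-pachytene cells. That is no larger a share than the 56.5% called among all genes. The higher ones were the Tudor genes Tdrd1 (4.35 ± 0.82) and Tdrd7 (1.53 ± 0.40), the transcription factor gene Mybl1 (1.52 ± 0.33) and Exd1 (0.94 ± 0.31). The lower ones were Tex15 (-5.99 ± 0.74), Tex19.1 (-4.64 ± 0.56), the PIWI gene Piwil2 (-2.24 ± 0.56), Gpat2 (-1.86 ± 0.38) and Morc1 (-1.81 ± 0.30). Tdrd1, which like Henmt1 was low in pre-mid cells, had 8.39 and 8.45 in mid-late cells against 4.15 and 4.001 in pre-mid cells. Piwil2, whose product binds piRNAs from fetal life to pachytene, had 12.15 and 12.59 in mid-late cells against 14.56 and 14.66 in pre-mid cells. The other PIWI gene measured, Piwil1, had 13.57 and 13.96 in mid-late cells against 12.69 and 12.79 in pre-mid cells, a difference that did not pass (1.02 ± 0.83, adjusted p = 0.33).

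Pre-mid-pachytene cells of the carriers were next set against C57BL/10J mid-late-pachytene cells. In t12+/+T43 cells 7 of the 9 genes were called, 3 higher and 4 lower, and 64.4% of all genes were, 34.2% higher and 30.2% lower. In Ttf+/+T43H cells 6 were called, 2 higher and 4 lower, and 60.3% of all genes were, 31.7% higher and 28.6% lower. Both comparisons share the 2 mid-late arrays, as does the comparison of the stages. Mov10l1 was 4.08 ± 0.44 higher in t12+/+T43 and 3.63 ± 0.44 higher in Ttf+/+T43H cells, and Asz1 was 2.26 ± 0.50 and 1.63 ± 0.50 higher in the same groups. Henmt1 differed by -5.86 ± 0.75 in t12+/+T43 and -5.32 ± 0.75 in Ttf+/+T43H cells, where 0 of 3 t12+/+T43 and 1 of 3 Ttf+/+T43H arrays reached 4, so these sizes are measured against background. The other lower genes were Ddx25 (-2.64 ± 0.45 in t12+/+T43 and -2.02 ± 0.45 in Ttf+/+T43H), Pld6 (-1.75 ± 0.38 and -2.06 ± 0.38) and Gtsf1 (-1.21 ± 0.26 and -1.01 ± 0.26). Tdrkh passed in t12+/+T43 cells (0.93 ± 0.24, adjusted p = 0.0081) and not in Ttf+/+T43H cells (0.57 ± 0.24, adjusted p = 0.067).

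Some of these calls depended on single arrays. The Asz1 call in Ttf+/+T43H cells was lost without Ttf+/+T43H replicate 1 or 3 (adjusted p = 0.063 and 0.051) and without mid-late replicate 1 or 2 (0.098 and 0.077). Without mid-late replicate 1, Gtsf1 in Ttf+/+T43H cells had an adjusted p of 0.073 and Tdrkh in t12+/+T43 cells one of 0.11. When the 2 arrays that stand apart were left out, 8 genes were called in t12+/+T43 and 7 in Ttf+/+T43H cells. Centring each array on its median moved the median of all genes in the Ttf+/+T43H comparison to -0.56, against 0.13 as deposited, and in the t12+/+T43 comparison to -0.31, against 0.16. Under that centring 6 genes were called in t12+/+T43 cells and 5 in Ttf+/+T43H cells, without Tdrkh in t12+/+T43 cells (0.52, adjusted p = 0.086) and without Asz1 in Ttf+/+T43H cells (0.99, adjusted p = 0.14).

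Markers of spermatocytes and of other cells moved in these comparisons as well. Over the 9 spermatocyte markers tested the median log2 difference was 1.88 in t12+/+T43 and 1.71 in Ttf+/+T43H cells. In each, 6 were called higher and 2 lower. Over the 7 Sertoli cell markers tested the median log2 difference was 5.89 in t12+/+T43 and 4.80 in Ttf+/+T43H cells, with 6 called higher in each. Over the 5 Leydig cell markers it was 6.20 in t12+/+T43, with 5 called higher, and 4.89 in Ttf+/+T43H, with 3. Over the 7 spermatogonial markers it was 3.64 in t12+/+T43 and 4.58 in Ttf+/+T43H, with 6 called higher in each. Over the 10 spermatid markers it was -2.96 in t12+/+T43, with 8 called lower, and 1.09 in Ttf+/+T43H, with 2 called higher. RNA quality by Gapdh differed as well for t12+/+T43. That 3′ excess ran between 3.44 and 3.98 in t12+/+T43 cells, against 2.51 and 3.39 in mid-late cells. In Ttf+/+T43H cells it ran between 3.26 and 3.91 and overlapped the mid-late arrays. The actin excess overlapped them in both carriers. The part of these cells and of RNA quality in the differences of the 9 genes was not tested.

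At the matched stage, Tdrkh alone among the 9 genes was called between the carriers and C57BL/10J pre-mid-pachytene cells. Tdrkh had 10.24, 10.32 and 10.49 in t12+/+T43 cells and 9.97, 10.14 and 9.88 in Ttf+/+T43H cells, against 11.31 and 11.69 in C57BL/10J cells. Every carrier array lay below both C57BL/10J arrays, which the 2 comparisons share. The difference was -1.15 ± 0.24 in t12+/+T43 (adjusted p = 0.020) and -1.51 ± 0.24 in Ttf+/+T43H cells (adjusted p = 0.022), or 2.22-fold and 2.84-fold. Of all genes, 9.07% were called for t12+/+T43 (3.24% higher and 5.83% lower) and 2.06% for Ttf+/+T43H (0.590% higher and 1.47% lower). With 1 of 9 called, neither count sets the 9 genes apart from this background. The t12+/+T43 call was lost without t12+/+T43 replicate 1 (adjusted p = 0.064), C57BL/10J replicate 1 (0.10) or C57BL/10J replicate 2 (0.20). The Ttf+/+T43H call was lost without Ttf+/+T43H replicate 1 (0.096) or 3 (0.060), or C57BL/10J replicate 1 (0.21) or 2 (0.23). Without the 2 arrays that stand apart, 1 gene was called in each comparison. The same held without t12+/+T43 replicate 2. Of all genes, 1391 were then called for t12+/+T43, against 877 with every array. For Ttf+/+T43H 632 were called, against 199 with every array.

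Other cells' markers and RNA quality moved with genotype in the same sorts. Sertoli cell markers averaged between 7.79 and 8.72 in t12+/+T43 and between 7.39 and 7.86 in Ttf+/+T43H cells, against between 6.69 and 6.80 in C57BL/10J cells, with 7 of 9 at 4 or above on every one of these arrays. Leydig cell markers averaged between 8.03 and 10.61 in t12+/+T43 and between 6.93 and 8.31 in Ttf+/+T43H, against between 3.998 and 5.80 in C57BL/10J. Spermatid markers ran the other way, between 5.51 and 7.92 in t12+/+T43 and between 9.88 and 10.33 in Ttf+/+T43H, against between 11.51 and 12.19 in C57BL/10J. As a measure of RNA quality, the Gapdh signal at the 3′ end exceeded that at the 5′ end by between 3.44 and 3.98 in t12+/+T43 cells and by between 3.26 and 3.91 in Ttf+/+T43H cells, against 2.86 and 2.93 in C57BL/10J cells. Their part in the Tdrkh difference was not tested.

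Tdrkh apart, none of the genes called between the stages differed from C57BL/10J pre-mid cells by a called amount in either carrier. Mov10l1 had 14.12, 13.49 and 14.19 in t12+/+T43 and 13.95, 12.53 and 13.98 in Ttf+/+T43H cells. All t12+/+T43 values lay above the C57BL/10J pre-mid values of 13.41 and 13.45, and the Ttf+/+T43H values lay on both sides of them. Henmt1 stayed near background, with 3.79, 3.97 and 2.36 in t12+/+T43 and 3.90, 2.68 and 5.19 in Ttf+/+T43H cells. Pld6 had 8.75, 8.74 and 8.48 in t12+/+T43 and 7.85, 8.04 and 9.15 in Ttf+/+T43H cells. Its t12+/+T43 values lay above the C57BL/10J pre-mid values of 7.95 and 8.36. None of the 3 genes passed against C57BL/10J pre-mid cells, where the SE was between 0.38 and 0.75, so differences of that size could not be resolved. Asz1 had 10.57, 10.45 and 10.45 in t12+/+T43 and 10.29, 8.65 and 10.65 in Ttf+/+T43H cells. All of these lay below the C57BL/10J pre-mid values of 10.76 and 10.72. The value of 8.65 belongs to Ttf+/+T43H replicate 2. Ddx25 had 11.29, 10.65 and 10.45 in t12+/+T43 and 11.66, 10.51 and 12.10 in Ttf+/+T43H cells. Its t12+/+T43 values lay below the C57BL/10J pre-mid values of 11.57 and 11.50. It did not pass in either comparison (-0.74 ± 0.45 and -0.11 ± 0.45).

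Gtsf1 had 13.11, 12.51 and 13.25 in t12+/+T43 and 13.24, 12.91 and 13.31 in Ttf+/+T43H cells, all below the C57BL/10J pre-mid arrays. The difference did not pass in t12+/+T43 (-0.66 ± 0.26, adjusted p = 0.18) or in Ttf+/+T43H cells (-0.46 ± 0.26, adjusted p = 0.41). Tdrd5 varied most among the Ttf+/+T43H arrays, with 8.69, 5.93 and 9.85, where t12+/+T43 cells had 8.995, 8.52 and 8.21. These t12+/+T43 values lay below the C57BL/10J pre-mid values of 9.13 and 9.33. The value of 5.93 is again that of Ttf+/+T43H replicate 2. Tdrd9 had 13.76, 14.23 and 13.34 in t12+/+T43 and 13.54, 12.42 and 13.87 in Ttf+/+T43H cells, overlapping the C57BL/10J pre-mid values in both. Of the other pathway genes, Gtsf1l, a relative of Gtsf1, was the 1 of 19 called in t12+/+T43 cells (-2.68 ± 0.63, adjusted p = 0.033), against 9.07% of all genes. It had 4.66, 4.96 and 3.23 there, near or under 4, so this size is measured against background. In Ttf+/+T43H cells 0 of 19 were called, against 2.06% of all genes. There, 0 of 19 had an unadjusted p under 0.05, against 1731 of all 9666 genes.

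**Figure D3:**
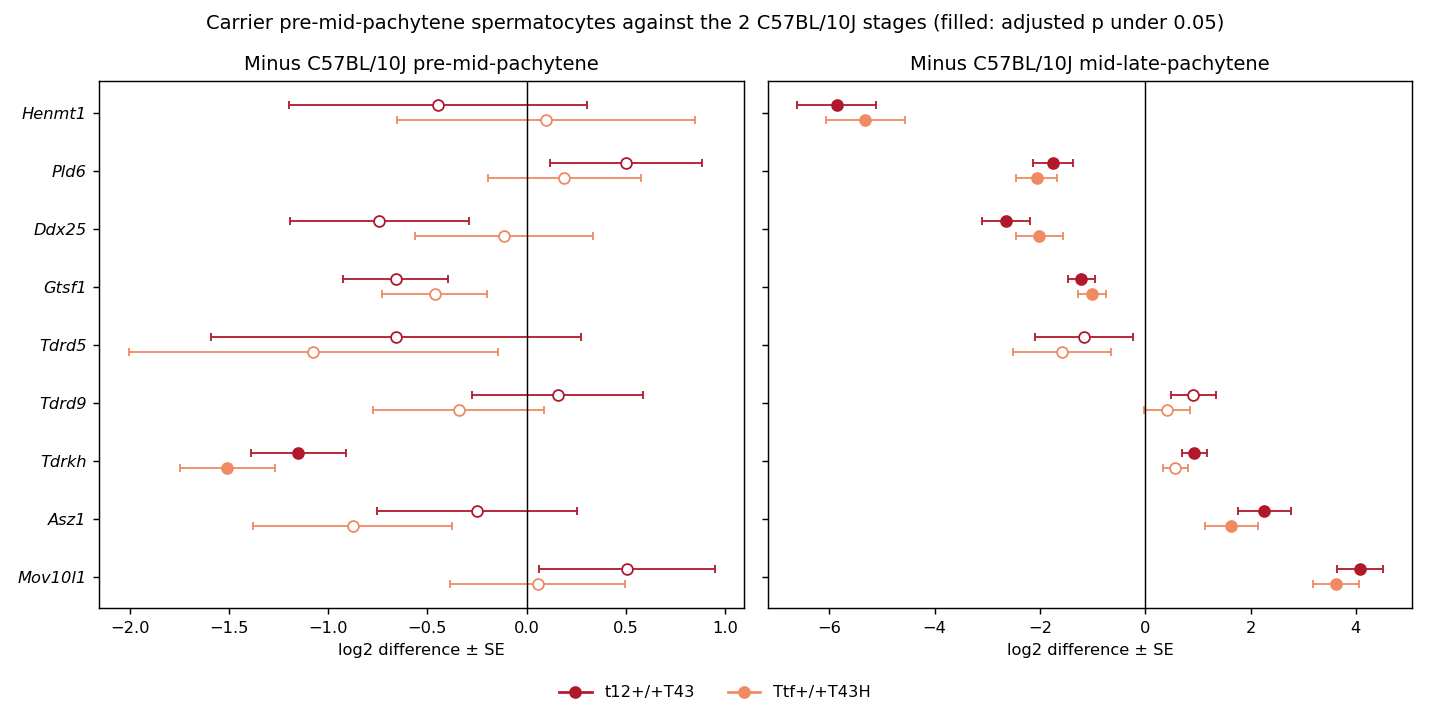
Log2 difference ± SE of the 9 genes in pre-mid-pachytene cells of t12+/+T43 and Ttf+/+T43H carriers (3 arrays each), against C57BL/10J pre-mid-pachytene cells on the left and against C57BL/10J mid-late-pachytene cells on the right (2 arrays each). Points are filled where limma's adjusted p was under 0.05. On the left only the Tdrkh points are filled, at -1.15 and -1.51, while on the right Henmt1 lies under -5 and Mov10l1 above 3.

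Setting t12+/+T43 directly against Ttf+/+T43H sorted cells, limma called 0 of the 9 genes, while 0.755% of all genes were called. None of the 9 had an unadjusted p under 0.05, against 987 of all 9666 genes. The differences lay between -0.63 for Ddx25 and 0.63 for Asz1. Only for Tdrkh did the ranges of the groups not overlap, with t12+/+T43 above Ttf+/+T43H (0.36 ± 0.21, adjusted p = 0.69). Of the other pathway genes 3 of 19 were without overlap, and the share over all genes was not counted. Without the 2 arrays that stand apart, 0 genes were called too. Without t12+/+T43 replicate 2, 0 of the 9 genes were called as well, while 411 of all genes were, against 73 with every array.

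In 15-day testes, where the first wave of germ cells is in meiotic prophase, the t12+/+T43 carriers had lower values than the Ttf+/+T43H carriers for Tdrd5, Tdrd9 and Gtsf1. In bulk testes fewer cells of a type and less RNA per cell cannot be told apart. These 3 of 9 genes were called, all lower, while 4.99% of all genes were called and 3.92% were lower. All 9 differences were negative, with a median of -0.42, against 0.02 over all genes. Tdrkh, the smallest of them at -0.01, turned positive under quantile normalization and under median centring.

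Tdrd5 had 9.30, 9.13 and 8.84 in t12+/+T43 testes, against 10.20, 9.87 and 9.70 in Ttf+/+T43H testes. The ranges did not overlap, and the difference was -0.83 ± 0.17 (adjusted p = 0.042). Tdrd9 had 10.46, 10.30 and 10.27 in t12+/+T43 testes, against 11.01, 10.93 and 10.72 in Ttf+/+T43H testes. Its difference of -0.54 ± 0.09 (adjusted p = 0.035) exceeded the spread within each group. Gtsf1 had 11.74, 11.72 and 11.55 in t12+/+T43 testes, against 12.16, 12.13 and 11.99 in Ttf+/+T43H testes. It was lower by 1.34-fold, the least of the called genes, at -0.42 ± 0.07 (adjusted p = 0.037).

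Ddx25 and Pld6 had differences as large and missed the threshold. Ddx25 had 9.26, 9.05 and 8.67 in t12+/+T43 testes, against 10.14, 9.82 and 9.53 in Ttf+/+T43H testes, without overlap (-0.84 ± 0.19, adjusted p = 0.052). Pld6 had 10.09, 9.86 and 9.57 in t12+/+T43 testes, against 10.84, 10.72 and 10.24 in Ttf+/+T43H testes, also without overlap (-0.76 ± 0.18, adjusted p = 0.058). The calls sit close to the threshold. Ddx25 and Pld6 passed it with a filter at 6, with an intensity trend and with the replicate number as a block. They missed it with no filter and in the fit of all 18 arrays. Tdrd5, Tdrd9 and Gtsf1 missed it too under those last settings. Leaving out 1 array at a time gave between 0 and 6 genes called, with 0 called when replicate 1 or 2 of Ttf+/+T43H, replicate 2 or 3 of t12+/+T43 or either C57BL/6J array was dropped, and 6 called when replicate 3 of Ttf+/+T43H was. The highest adjusted p of Tdrd5, Tdrd9 and Gtsf1 among these was 0.14, and no difference of these 3 genes changed its sign.

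Against C57BL/6J testes, t12+/+T43 testes had 5 of the 9 genes lower and none higher, while 21.8% of all genes were called, 11.3% lower and 10.5% higher. The 5 were Ddx25 (-1.07 ± 0.21, adjusted p = 0.013), Tdrd5 (-1.02 ± 0.19, adjusted p = 0.010), Tdrd9 (-0.50 ± 0.10, adjusted p = 0.012), Gtsf1 (-0.45 ± 0.08, adjusted p = 0.0092) and Asz1 (-0.24 ± 0.07, adjusted p = 0.046). The C57BL/6J testes had 10.12 and 10.01 for Ddx25, 10.26 and 9.96 for Tdrd5, 10.86 and 10.83 for Tdrd9, and 12.14 and 12.10 for Gtsf1. All of these stood above the 3 t12+/+T43 values of the same gene. Asz1 had 9.63, 9.50 and 9.56 in t12+/+T43 testes, against 9.75 and 9.85 in C57BL/6J testes, without overlap. Pld6, with 10.54 and 10.49 in C57BL/6J testes, missed the threshold (-0.68 ± 0.20, adjusted p = 0.052). Without C57BL/6J replicate 1, 0 genes were called, with adjusted p values between 0.071 for Gtsf1 and 0.11 for Asz1. The Asz1 call was the least firm, since it held under 4 of 15 alternatives and was lost with no filter (adjusted p = 0.056), under median centring (0.084) and without any 1 of 7 of the 8 testis arrays, all but Ttf+/+T43H replicate 2 (between 0.056 and 0.23). Without C57BL/6J replicate 2, Tdrd5 and Gtsf1 were called, and Ddx25 and Tdrd9 had adjusted p values of 0.062 and 0.061.

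Ttf+/+T43H testes differed from C57BL/6J testes in 1 of the 9 genes, Mov10l1, which was higher, while 8.56% of all genes were called, 3.86% higher and 4.70% lower. A count of 1 of 9 is near that background. Mov10l1 had 11.72, 11.77 and 11.48 in Ttf+/+T43H testes and 11.54, 11.41 and 11.37 in t12+/+T43 testes, against 11.22 and 11.25 in C57BL/6J testes. Carrier values all lay above both C57BL/6J values, with a difference of 0.42 ± 0.09 in Ttf+/+T43H (adjusted p = 0.038) and 0.20 ± 0.09 in t12+/+T43 testes (adjusted p = 0.17). The Ttf+/+T43H call was lost when Ttf+/+T43H replicate 1 (0.098) or 2 (0.11) was dropped, when t12+/+T43 replicate 1 (0.052) or 2 (0.067) was, and when C57BL/6J replicate 1 (0.19) or 2 (0.16) was. The 3 comparisons of testes share arrays, so their values are set side by side only. Tdrkh was level in all testes, with 9.70, 9.62 and 9.54 for t12+/+T43, 9.62, 9.76 and 9.51 for Ttf+/+T43H, and 9.69 and 9.65 for C57BL/6J. Henmt1 stood near the low end of the measurable range, with 4.58, 5.16 and 5.22 for t12+/+T43, 5.06, 5.13 and 5.25 for Ttf+/+T43H, and 5.69 and 5.32 for C57BL/6J.

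Spermatocyte markers in the same testes averaged between 10.42 and 10.63 for t12+/+T43, between 10.66 and 10.85 for Ttf+/+T43H and between 10.49 and 10.56 for C57BL/6J, with 8 of 9 at 4 or above on every array. Among the 8 tested, Msh4 (-0.40, adjusted p = 0.044) and Syce1 (-0.37, adjusted p = 0.040) were lower in t12+/+T43 than in Ttf+/+T43H testes. Spermatid markers averaged between 2.83 and 2.97 over all testes, with 1 of 10 at 4 or above. Sertoli cell markers averaged between 10.06 and 10.26 for t12+/+T43, between 9.94 and 10.10 for Ttf+/+T43H and between 9.97 and 9.98 for C57BL/6J. Against C57BL/6J testes, all 4 Leydig cell markers tested had negative differences, with a median of -1.85 for t12+/+T43 and -1.53 for Ttf+/+T43H, and Hsd3b1 was called lower in both. Of 8 spermatocyte markers, 1 was higher and 1 was lower than in C57BL/6J in t12+/+T43, and 1 was higher in Ttf+/+T43H. The 1 spermatid marker tested was higher in Ttf+/+T43H (0.71). Of 5 peritubular cell markers, 1 was lower in t12+/+T43. Of 7 spermatogonial markers, 3 were higher and 1 was lower in t12+/+T43, and 1 was higher and 1 was lower in Ttf+/+T43H. Of 8 Sertoli cell markers, 2 were higher in t12+/+T43, and the macrophage marker Adgre1 was lower in both. The part of these cells and of cell numbers in the differences of the 9 genes was not tested.

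**Figure D4:**
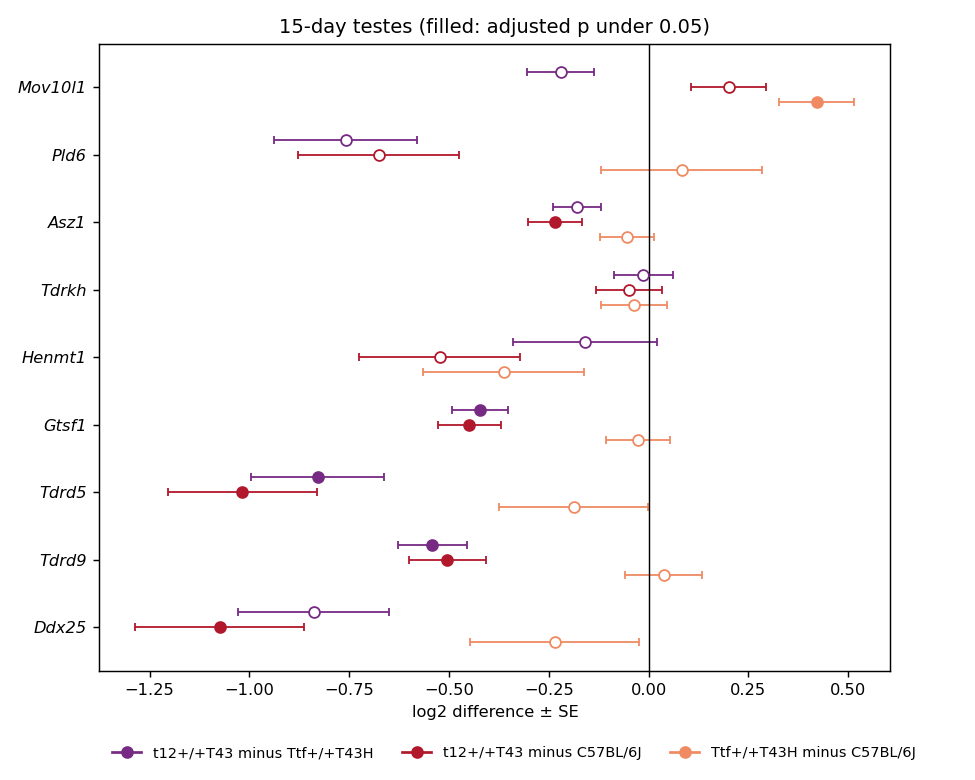
Log2 difference ± SE of the 9 genes between the groups of 15-day testes (3 t12+/+T43, 3 Ttf+/+T43H and 2 C57BL/6J arrays), filled where limma's adjusted p was under 0.05. Tdrd5, Tdrd9 and Gtsf1 are lower in t12+/+T43 against both other groups, and Mov10l1 is the filled point to the right of 0.

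Of 18 other pathway genes tested in testes, 15 had negative differences between t12+/+T43 and Ttf+/+T43H. Their median was -0.19, against 0.02 over all genes. By limma, 12 of the 18 had an unadjusted p under 0.05, against 2364 of all 9134 genes. Only 1 was called, near the 4.99% called among all genes. It was Pnldc1, which codes for the trimming enzyme and lies on chromosome 17. It had 8.46, 8.48 and 8.35 in t12+/+T43 and 8.71, 8.80 and 8.80 in Ttf+/+T43H testes, against 9.05 and 9.15 in C57BL/6J testes. Pnldc1 was lower in each comparison, with differences of -0.34 ± 0.06 for t12+/+T43 against Ttf+/+T43H, -0.33 ± 0.06 for Ttf+/+T43H against C57BL/6J and -0.67 ± 0.06 for t12+/+T43 against C57BL/6J. TDRKH and PNLDC1 act together in trimming, but Tdrkh did not pass in testes. Against C57BL/6J, t12+/+T43 testes also had lower Piwil2 (-0.41 ± 0.12, adjusted p = 0.046) and higher Tex15 (0.25 ± 0.05, adjusted p = 0.016), while 21.8% of all genes were called. Piwil1, the pachytene PIWI gene, had 11.24, 10.83 and 10.17 in t12+/+T43 and 12.40, 11.998 and 11.54 in Ttf+/+T43H testes, against 12.09 and 11.72 in C57BL/6J testes. Its t12+/+T43 values lay below all others, but the differences did not pass (adjusted p = 0.065 against Ttf+/+T43H and 0.052 against C57BL/6J).

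Sorted cells of the carriers were also set against the carriers' testes, in 1 fit of all 18 arrays. Of the 9 genes 8 were called, 5 higher and 3 lower in sorted cells, where 80.9% of all genes were called, 46.2% higher and 34.7% lower, so the count is at the background. Tdrd9 (2.91 ± 0.21), Mov10l1 (2.16 ± 0.22), Ddx25 (1.70 ± 0.24), Gtsf1 (1.17 ± 0.12) and Tdrkh (0.55 ± 0.11) were higher in sorted cells. Pld6 (-1.72 ± 0.20), Henmt1 (-1.42 ± 0.39) and Tdrd5 (-1.14 ± 0.48) were lower, and Asz1 did not pass (0.52 ± 0.25, adjusted p = 0.066). The median of all genes was 0.25 in this comparison and 0.85 after median centring, so only differences well beyond that set genes apart from the rest. Under median centring Tdrd5 and Henmt1 no longer passed (adjusted p = 0.31 and 0.073). Henmt1, whose sorted values lie mostly under 4, also missed it under quantile normalization (-0.90, adjusted p = 0.065), and Tdrd5 with no filter (adjusted p = 0.055). Tdrd5 was -0.49 (adjusted p = 0.052) without the 2 arrays that stand apart, and it also missed the threshold (adjusted p between 0.051 and 0.079) when sorted t12+/+T43 replicate 2 or 3, any 1 of the Ttf+/+T43H testes, or t12+/+T43 testis 1 or 2 was left out. Sample type moved with age and with RNA quality, since that Gapdh excess ran between 3.26 and 3.98 in the sorted carriers and between -0.07 and 0.14 in their testes. Age, sorting and RNA quality cannot be told apart here.

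The same fit tested whether t12+/+T43 carriers departed from Ttf+/+T43H carriers by a different amount in sorted cells than in testes. Of the 9 genes, limma called 0, and 2 had an unadjusted p under 0.05, Pld6 (1.07 ± 0.41, adjusted p = 0.48) and Tdrd9 (1.04 ± 0.42, adjusted p = 0.55). Of all genes, 0.734% were called, most of them lower (0.668%), and 812 of 10623 had an unadjusted p under 0.05. Without Ttf+/+T43H sorted replicate 3, Pld6 was called. For Tdrd5, Tdrd9 and Gtsf1, no difference between sorted cells and testes in the effect of genotype was thus shown.

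Over the 7 groups, the 9 genes had different orders of level. Mov10l1, Asz1 and Tdrkh had their lowest mean in mid-late-pachytene cells, where Tdrkh overlapped the testes, and Henmt1, Gtsf1 and Ddx25 had their highest there. Tdrd9 was highest in t12+/+T43 pre-mid cells, at 13.77, and the 4 sorted groups all stood above the testes, although neighbouring sorted groups overlapped. Tdrd5 and Pld6 had their highest means in testes, Tdrd5 in C57BL/6J at 10.11 and Pld6 in Ttf+/+T43H at 10.60, each overlapping its neighbour in the order. The span between the lowest and highest group mean was widest for Henmt1, at 5.86 measured against background, and narrowest for Tdrd5, at 1.95. The 3 genes most like each of these in their values over the 10 sorted arrays, by Pearson's r among 8889 genes, included Ktn1 (0.998), Rufy1 (0.997) and Gyg (0.996) for Mov10l1. For Henmt1 they were Cds1 (0.992), Mypn (0.990) and Mdh1b (0.987), for Asz1 Tmem62 (0.994), Ahcyl1 (0.989) and Sgce (0.988), and for Ddx25 Lrrc46 (0.986), Spag8 (0.982) and Mad2l2 (0.981). These are descriptions over 10 arrays that share the same stage difference, and none of the nearest 3 genes of a member was another member.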

How the data were processed

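Values deposited by the authors are on a log2 scale and come from GCRMA, according to the submitters' processing notes, which give no version. The genome build, and which arrays were normalized together, is not given in the sources used here. There are 16539 probe sets in all, 1 per Entrez gene, of which 15780 have 1 gene symbol, 0 have several and 759 have none (64 of those are array controls), and unnamed ones were left out. Arrays give no read depth, and their number limits the precision.

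The deposited values were used as they stand. Testing required a log2 value of 4 or more on at least 2 of a fit's arrays, a filter that all 9 genes passed in every fit. Sorted cells (10 arrays, 9666 genes), testes (8 arrays, 9134 genes) and all 18 arrays (10623 genes) were each given their own model with limma (version 3.58.1, R version 4.3.3), using lmFit on group means and then eBayes. Tests were two-sided, with Benjamini-Hochberg adjustment over all genes of a comparison and a threshold of 0.05. The fits were tested on simulated data. Sample titles gave the groups and replicate numbers, and the replicates are biological according to the design text. All 9 genes were tested in every comparison, though not every gene is named in each. Called genes of a further pathway list are named for some comparisons only. The 3 genes most correlated with a member are named for some members only. The members and lists were chosen with earlier results of these data known. Of the further list, 8 genes were not analysed here. Alternatives were no filter, a filter at 6, quantile normalization, median centring, the replicate number as a block, an intensity trend, 1 fit of all arrays, and leaving out arrays.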

Additional observations from a re-analysis of the deposited data

How the results depend on the processing

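Of 99 changes of a gene in a comparison, 38 were called, and 21 of these were called under every alternative run. Alternatives gave 713 values of called changes, of which 630 stayed past the threshold, 83 missed it and 0 changed sign. They gave 1111 values of changes that were not called, of which 34 passed and 46 changed sign, none of them past the threshold. Replicate numbers did not pair the sorted arrays, where the deviations of same-numbered t12+/+T43 and Ttf+/+T43H arrays correlated at 0.25, 0.016 and -0.36. In testes they correlated at 0.50, 0.046 and 0.68. Unlike numbers there gave -0.54 for t12+/+T43 replicate 1 with Ttf+/+T43H replicate 3, and -0.64 for 3 with 1. For 2 with 1 it was 0.40. With the number as a block, 1703 of all genes were called between these testes, against 456 without it. Whether testis arrays of the same number share a factor was not tested. Nothing in the labels ties a number to an animal or day. With the replicate block, 0 genes were called for either carrier against C57BL/10J pre-mid cells (1 each without it), 5 for t12+/+T43 against Ttf+/+T43H testes (3 without it) and 2 for Ttf+/+T43H against C57BL/6J testes (1 without it).

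In the fit of all 18 arrays, 2 genes were called for t12+/+T43 against C57BL/10J pre-mid cells and 0 in each comparison of testes, where the spread of each gene is then estimated from the more variable sorted arrays too. With no filter, 0 were called for t12+/+T43 against Ttf+/+T43H testes and 0 for Ttf+/+T43H against C57BL/6J testes. A filter at 6 and an intensity trend each gave 5 for t12+/+T43 against Ttf+/+T43H testes. With 1 array left out, the count lay between 0 and 1 for each carrier against C57BL/10J pre-mid cells, between 0 and 6 for t12+/+T43 against Ttf+/+T43H testes, between 0 and 1 for Ttf+/+T43H against C57BL/6J testes, between 0 and 5 for t12+/+T43 against C57BL/6J testes, and between 0 and 1 for the difference of differences. A lone remaining C57BL array was assumed to vary like the other groups. The cause of the other moves was not tested.

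Median centring moved the median of all genes to 0.28, against 0.05 as deposited, for t12+/+T43 against Ttf+/+T43H sorted cells, to -0.12 against 0.0070 for Ttf+/+T43H against C57BL/10J pre-mid cells, and to 0.25 against 0.04 for the difference of differences. The changes that turned sign were all of genes not called. For Ttf+/+T43H pre-mid against C57BL/10J mid-late cells, log2 differences were -0.22 for Tdrd9 and -0.065 for Tdrkh under median centring. For Ttf+/+T43H against C57BL/10J pre-mid cells, log2 differences with 1 array left out lay between -0.45 and 0.34 for Ddx25, between -0.54 and 0.72 for Henmt1, between -0.19 and 0.53 for Mov10l1, between -0.21 and 0.44 for Pld6, between -1.92 and 0.040 for Tdrd5 and between -0.64 and 0.086 for Tdrd9. They were 0.34 for Ddx25, 0.040 for Tdrd5 and 0.086 for Tdrd9 without both arrays that stand apart, -0.028 for Henmt1 and -0.068 for Mov10l1 under median centring and -0.13 for Mov10l1 under the replicate block. For Ttf+/+T43H against C57BL/6J testes, log2 differences with 1 array left out lay between -0.059 and 0.026 for Gtsf1, between -0.035 and 0.26 for Pld6, between -0.024 and 0.12 for Tdrd9 and between -0.10 and 0.024 for Tdrkh. They were 0.030 for Gtsf1 and 0.014 for Tdrkh under the replicate block. For the t12+/+T43 minus Ttf+/+T43H difference of sorted cells against that of testes, log2 differences with 1 array left out lay between -0.25 and 0.55 for Ddx25 and between -1.01 and 0.25 for Henmt1. They were -0.072 for Ddx25 and -0.041 for Gtsf1 without both arrays that stand apart. For t12+/+T43 against C57BL/10J pre-mid cells, log2 differences with 1 array left out lay between -1.01 and 0.11 for Henmt1 and between -0.069 and 0.37 for Tdrd9. It was 0.060 for Henmt1 without both arrays that stand apart. For t12+/+T43 against C57BL/6J testes, it was 0.00029 for Tdrkh under the replicate block. For t12+/+T43 against Ttf+/+T43H testes, log2 differences with 1 array left out lay between -0.28 and 0.044 for Henmt1 and between -0.074 and 0.052 for Tdrkh. They were 0.010 for Tdrkh under quantile normalization and 0.012 for Tdrkh under median centring. For t12+/+T43 against Ttf+/+T43H sorted cells, log2 differences with 1 array left out lay between -0.34 and 0.027 for Gtsf1, between -1.17 and 0.088 for Henmt1, between -0.027 and 0.70 for Mov10l1 and between -0.70 and 1.26 for Tdrd5. They were 0.035 for Gtsf1 under median centring and -0.15 for Mov10l1 and -0.52 for Tdrd5 without both arrays that stand apart.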
